A study of Homo sapiens with 25 samples.

Results

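Small RNA libraries labelled as A2780 cells with a vector for miR-450a were compared with libraries labelled as A2780 cells with a vector for miR-450b. A2780 is a long-established cell line grown from a human ovarian carcinoma. The miR-450a vector group carried pri-miR-450a delivered by lentivirus, the miR-450b vector group carried pri-miR-450b delivered in the same way, and an empty vector group carried the lentiviral vector with no miRNA. Each group had 3 libraries, and no other treatment or genotype is given for them in the labels. The members compared were the human rows whose mean over the 6 libraries of the vectors reached 10 reads per 1000000 miRNA reads (RPM). That gave 405 mature miRNA rows of the 1410 rows in the mature table (1033 of them human) and 289 precursor rows of the 934 in the precursor table (557 of them human). Another 3 viral rows reached the same minimum in each table and stayed in the fits. The deposited values were shares of all miRNA reads of a library, so the sequencing depth behind them is unknown, and a share can rise because others fall. The protocol in the labels speaks of biological replicates without saying whether they came from separate cultures or transductions, or whether a group is 1 clone, and p-values therefore reflect only how much these libraries vary, which may be technical.

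A miRNA gene is transcribed into a primary transcript from which a hairpin precursor is cut, and the hairpin then yields a mature strand from either arm. The mature strand guides an Argonaute protein to messenger RNAs, mainly by pairing of its seed, bases 2 to 8, with the target. miRNAs with the same seed form families with overlapping targets, whereas miRNAs from neighbouring genes often share a transcript and hence a level. miR-450a and miR-450b come from neighbouring genes on the X chromosome, in a cluster with miR-542, miR-503 and miR-424. A star marks the lesser arm of a hairpin in the tables.

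The mature sequences that carry the results are given 5′ to 3′ from RefSeq (GRCh38.p14), with the seed in capitals. The miRNAs named in the vectors are shown because the vectors differ in them. In GRCh38.p14 miR-450a is encoded at chrX:134540393-134540414 (MIR450A1) and at chrX:134540564-134540585 (MIR450A2), and miR-450b at chrX:134540231-134540252 (MIR450B), all on the minus strand and within miRNA genes.
miR-450a: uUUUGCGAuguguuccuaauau
miR-450b: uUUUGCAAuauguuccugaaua
These sequences were identical at 16 of 22 positions counted from the 5′ end, with the differences G7A, G10A, A18G, U20A, A21U and U22A (miR-450a base first). The difference at position 7 lies inside the seed, so the vectors supply miRNAs with different seeds.

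The next sequences are pairs that share a seed but behaved differently between the vectors. let-7f (MIRLET7F1 on chromosome 9 and MIRLET7F2 on X) and let-7c (MIRLET7C on chromosome 21) differ by A12G and A19G. miR-196b (MIR196B on chromosome 7) and miR-196a (MIR196A2 on chromosome 12 and MIR196A1 on 17) differ by C12A. miR-29c (MIR29C on chromosome 1) and miR-29a (MIR29A on chromosome 7) differ by U10C, and miR-148a (MIR148A on chromosome 7) and miR-148b (MIR148B on chromosome 12) by C9U and U10C.
let-7f: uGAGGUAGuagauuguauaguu
let-7c: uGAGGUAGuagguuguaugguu
miR-196b: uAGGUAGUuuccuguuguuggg
miR-196a: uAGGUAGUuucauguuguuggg
miR-29c: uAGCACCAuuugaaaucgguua
miR-29a: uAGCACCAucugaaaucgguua
miR-148a: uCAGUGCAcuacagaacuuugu
miR-148b: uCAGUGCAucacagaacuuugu
The last set is shown because it holds abundant miRNAs of neighbouring genes that changed together. miR-199a-3p, made by MIR199A2 on chromosome 1 and MIR199A1 on chromosome 19, and miR-214-3p, made by MIR214 on chromosome 1, were nearly absent with the miR-450a vector. miR-221 and miR-222, made by neighbouring genes on the X chromosome, share a seed and moved the other way.
miR-199a-3p: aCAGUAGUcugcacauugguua
miR-214-3p: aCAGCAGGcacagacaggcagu
miR-221: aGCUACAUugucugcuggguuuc
miR-222: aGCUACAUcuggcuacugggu

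Before the results, the libraries themselves need a description. Across the tested mature rows, the correlation of log2 levels between a miR-450a vector library and a miR-450b vector library was r = 0.72 to 0.74, while libraries within a group correlated at 0.96 to 0.99 (rows are not independent, and no test was made). Between a miR-450b vector library and an empty vector library it was 0.90 to 0.96. The miR-450a vector libraries thus stood apart as a group, and they carried a viral row that the others lacked. SV40 miR-S1-3p, a miRNA of a polyomavirus, stood at 70.2, 47.8 and 73.4 RPM with the miR-450a vector, against 0, 0 and 0.501 RPM with the miR-450b vector and 0, 0 and 0.267 RPM with the empty vector. Since each vector marks all libraries of its group, an effect of the vector and any other difference between the cells cannot be told apart, and no comparison is left without the libraries that stand apart. The tables hold no check of cell identity, so whether the miR-450a vector libraries came from the same cells as the others was not tested, nor was the part of the source of the SV40 reads in the results. The 10 most abundant rows held 49.6% to 53.2% of reads in miR-450a vector libraries and 48.8% to 51.4% in miR-450b vector libraries.

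Each miRNA was higher under the vector that names it. miR-450a stood at 8967, 10075 and 20745 RPM with the miR-450a vector, against 270.2, 504 and 445 RPM with the miR-450b vector and 317, 405 and 446 RPM with the empty vector. All miR-450a vector libraries lay far above all others, and the group with the miR-450b vector overlapped the empty vector. The log2 difference between the vectors was 4.94 ± 0.37 (SE, adjusted p = 5.05e-07 in a limma fit of log2(RPM + 10), a scale that understates changes of low rows). miR-450b stood at 207, 223.2 and 293 RPM with the miR-450a vector, against 547, 850.3 and 1544 RPM with the miR-450b vector and 71.6, 72.4 and 131 RPM with the empty vector. The groups did not overlap, and the log2 difference was -1.87 ± 0.39 (adjusted p = 0.00177). For both levels the two-sided exact permutation test gave p = 0.1, the smallest that 3 against 3 allows. The ratio of miR-450a to miR-450b was 53.1 ± 15.4 under the miR-450a vector, 0.458 ± 0.155 under the miR-450b vector and 4.47 ± 1.09 under the empty vector (SD, n = 3).

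The lesser arms separated the gene copies. miR-450a-1*, from the MIR450A1 hairpin, stood at 881, 1179.5 and 746 RPM with the miR-450a vector, against 12.2, 12.9 and 15.4 RPM with the miR-450b vector, a log2 difference of 5.31 ± 0.24 (adjusted p = 9.08e-09). miR-450a-2*, from the MIR450A2 hairpin, averaged 44.3 ± 7.54 and 20.6 ± 1.13 RPM (SD, n = 3 each), and its call at 0.82 was lost under median-of-ratios scaling (0.27). miR-450b* averaged 1.70 ± 0.866 RPM with the miR-450a vector and 43.2 ± 17.3 RPM with the miR-450b vector (SD, n = 3 each), a log2 difference of -2.13 ± 0.22. The main arm held 99.3 ± 0.292% of miR-450b reads with the miR-450a vector and 95.6 ± 0.651% under the miR-450b vector (SD, n = 3 each, exact permutation p = 0.1). For miR-450a these shares were 92.0 ± 3.77% and 91.8 ± 2.31% (exact permutation p = 1). That last difference, 0.208 percentage points, changed sign without miR-450a vector replicate 3 (-1.93) or without miR-450b vector replicate 1 (-1.04).

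The neighbours in the gene cluster were also higher with the miR-450a vector as deposited. miR-503 stood at 1854, 2165 and 1811 RPM with the miR-450a vector and 417, 459 and 477 RPM with the miR-450b vector, groups that did not overlap. Its log2 difference was 2.08 ± 0.23 (adjusted p = 1.74e-05), and it was called under both scalings. miR-424, which shares the seed of the miR-15 and miR-16 family, averaged 2833 ± 854 and 1117 ± 392 RPM (SD, n = 3 each), a log2 difference of 1.36 that was lost under median-of-ratios scaling at 0.63. miR-542 averaged 368 ± 87.1 and 177 ± 84.6 RPM, and its call at 1.09 (adjusted p = 0.0399) was lost under that scaling (0.38), with no filter on low rows (1.09) and without any of 5 of the 6 libraries compared, at 0.89 to 1.21. The lesser arm miR-424* rose by 1.29, a call lost under median-of-ratios scaling (0.59), and miR-503* rose by 1.01. miR-542* averaged 110.3 ± 44.2 RPM with the miR-450a vector and 58.7 ± 14.5 RPM with the miR-450b vector (SD, n = 3 each) and did not pass (0.77), though it did under 6 alternatives, among them without miR-450a vector replicate 3 (0.98) or miR-450b vector replicate 2 (0.94). Over the cluster list, 8 of 11 tested rows rose and 2 fell with the miR-450a vector, against 4 and 2 under median-of-ratios scaling, and the median log2 change was 1.09. Of all tested mature rows 43.6% were called higher and 17.9% lower, and the list holds the products of the vectors themselves.

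**Figure D1:**
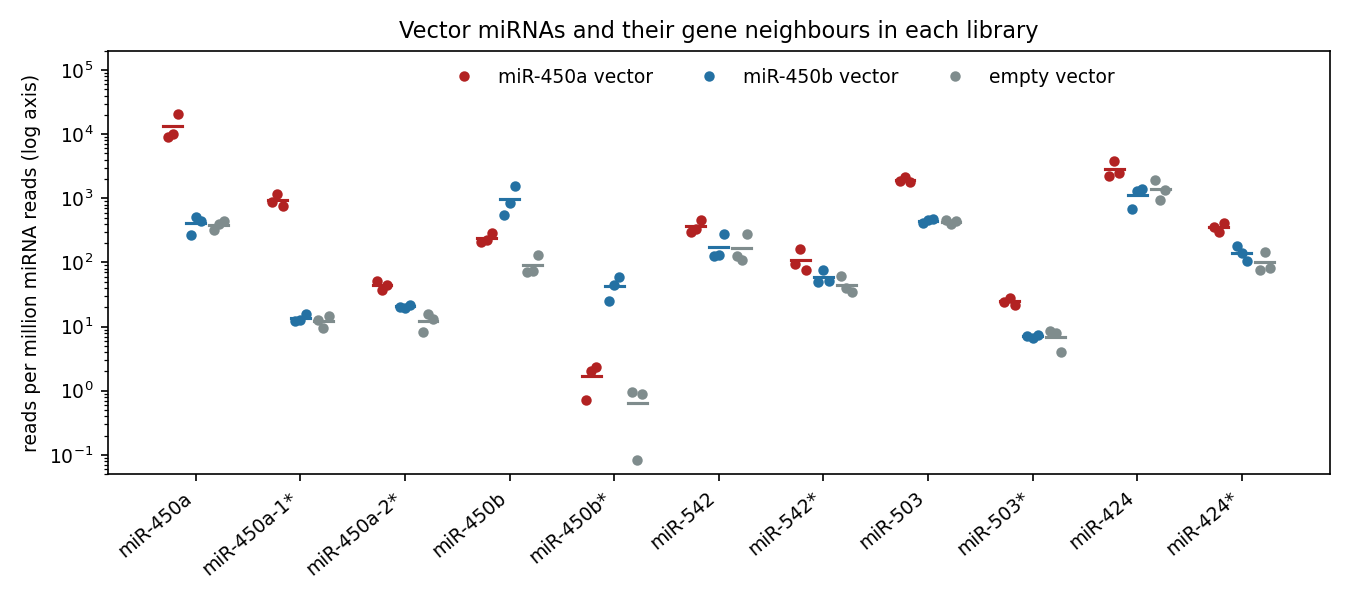
Levels of the vector miRNAs and of their gene neighbours in reads per 1000000 miRNA reads (log axis), with a point for each library and a bar for the mean of 3. miR-450a and miR-450a-1* are high only in the miR-450a vector libraries shown, and miR-450b* stands between 25.0 and 59.6 RPM across the miR-450b vector libraries and below 3 RPM in the others.

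Differences reached far beyond the vector miRNAs. Of 408 mature rows tested, human and viral, 61.5% passed an adjusted p of 0.05, with 43.6% higher under the miR-450a vector and 17.9% lower. Of the 405 human rows, 176 rose, 73 fell and 156 did not pass. The groups did not overlap in 69.6% of the tested rows. The direction depended on scaling. The median log2 change of all tested rows was 0.67 as deposited and 0.03 with median-of-ratios scaling, which divides each library by its median ratio to a common reference, a shift of 0.64. With that scaling 24% of rows were called higher and 25.5% lower, so the share of calls that were higher was 48.5% instead of 70.9%. Under both scalings 96 human rows rose and all 73 falls remained, 169 rows in all. No human row was called in opposite directions by the scalings.

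Many changes were large. As deposited, 131 human rows rose and 66 fell by at least 1 on the log2 scale, 28 rose and 18 fell by at least 3, and 11 rose and 9 fell by at least 5. Some rows were present under 1 vector and nearly absent under the other. A level of at least 100 RPM in every miR-450a vector library, with under 10 RPM in every miR-450b vector library, was found for 13 rows: miR-629, both arms of miR-296, both arms of miR-708, miR-31-5p, miR-187, miR-181a-1*, miR-9*, miR-148a*, miR-10b*, miR-582 and miR-95. The reverse held for 4 rows, miR-675, both arms of miR-335 and miR-130a*. These limits were chosen after the values were seen.

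**Figure D2:**
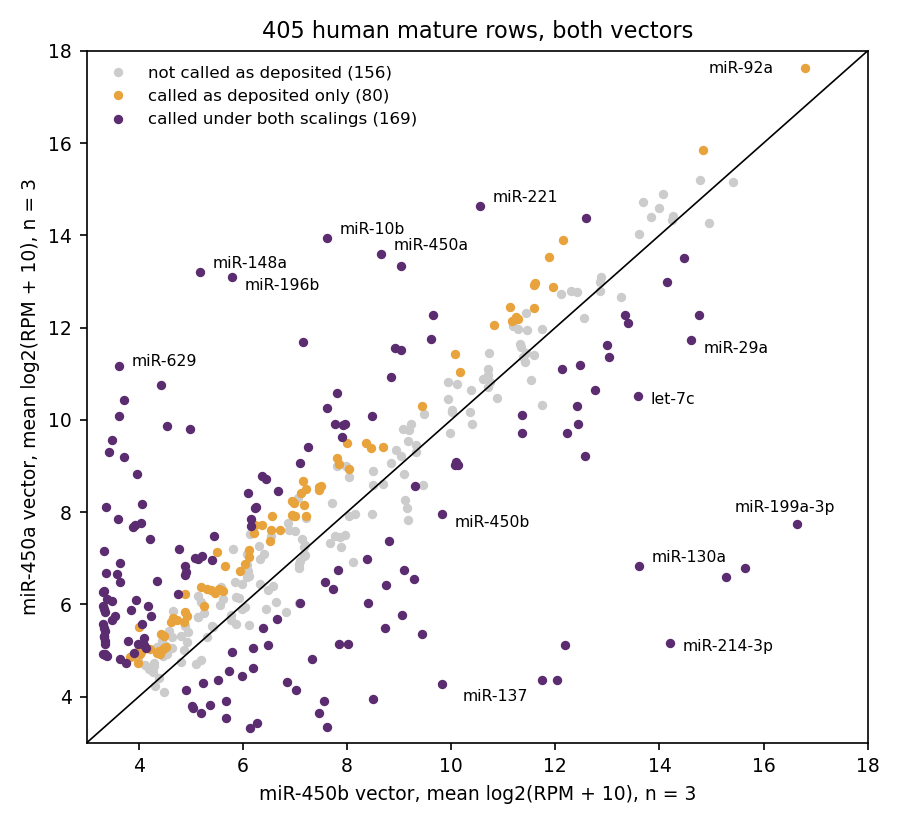
Mean log2(RPM + 10) of each of the 405 human mature rows with the miR-450a vector (vertical axis) and the miR-450b vector (horizontal axis), n = 3 each, with the line of equal levels. The 169 rows called under both scalings lie on both sides of the line, the 80 rows called as deposited only lie just above it, and miR-199a-3p, miR-214-3p and miR-137 stand far below it.

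The 5 largest falls were arms of miR-214, miR-199a and miR-199b, typical miRNAs of mesenchymal cells. miR-199a and miR-214, encoded together in an antisense transcript of the dynamin gene DNM3, and miR-199b are typical of fibroblasts, and miR-143 and miR-145 of smooth muscle. miR-199a-3p stood at 269, 174 and 178 RPM with the miR-450a vector, against 96802, 89465 and 122116 RPM with the miR-450b vector and 64942, 81368 and 117496 RPM with the empty vector. The log2 difference between the vectors was -8.90 ± 0.30 (adjusted p = 1.86e-09). miR-214-3p stood at 25.2, 36.8 and 18.4 RPM with the miR-450a vector, against 23339, 18720.00 and 15363 RPM with the miR-450b vector, a difference of -9.03 ± 0.31. For both, the miR-450a vector libraries lay below the others by more than 2 orders of magnitude, and for miR-199a-3p the miR-450b vector libraries overlapped the empty vector libraries. The log2 changes of miR-199a-5p, miR-214-5p and miR-199b-5p were -8.69, -7.67 and -7.08. miR-199b-3p, at -8.84, has the same mature sequence as miR-199a-3p, so both rows rest on parts of the same reads. miR-143 averaged 31.0 ± 5.19 RPM with the miR-450a vector and 698 ± 176 RPM with the miR-450b vector, and miR-145 4.98 ± 1.04 and 41.9 ± 11.3 RPM (SD, n = 3 each), with log2 changes of -4.09 and -1.77. The change of miR-145 did not pass with a pseudocount of 100 RPM (-0.43).

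Over this list, 0 of 8 tested rows rose and 8 fell, and the same was found under median-of-ratios scaling (0 and 8). Its rows held 0.0501 ± 0.00783% of miRNA reads under the miR-450a vector, 22.3 ± 2.48% under the miR-450b vector and 21.1 ± 4.20% under the empty vector (SD, n = 3). The difference between the vectors had an exact permutation p = 0.1, adjusted to 0.126 over the 29 lists compared. In bulk libraries fewer cells of a type and less RNA per cell cannot be told apart.

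Other miRNAs nearly lost with the miR-450a vector came from unrelated genes. miR-137, which is best known from neurons, stood at 5.95, 19.5 and 8.67 RPM with the miR-450a vector and 2394, 4588 and 3594 RPM with the miR-450b vector (-7.37 ± 0.34, adjusted p = 9.08e-09). miR-130a stood at 63.3, 204 and 82.5 RPM with the miR-450a vector and 8775, 16539 and 13429 RPM with the miR-450b vector (-6.79 ± 0.50). Its lesser arm miR-130a* was at 0, 0.223 and 0 RPM, against 187, 205 and 165 RPM. The groups were far apart for both arms, while miR-130b-3p of the same family averaged 4879 ± 1266 RPM with the miR-450a vector and 2435 ± 510.2 RPM with the miR-450b vector (SD, n = 3 each). That rise of 0.99 was lost under median-of-ratios scaling (0.26) and without miR-450b vector replicate 1 (0.88). Of the miR-130, miR-301 and miR-454 family, 1 of 10 tested rows rose and 2 fell, against 0 and 4 under median-of-ratios scaling. miR-204 averaged 45.2 ± 5.49 and 537 ± 139 RPM and miR-135a 0.763 ± 0.625 and 68.9 ± 18.5 RPM (SD, n = 3 each), log2 changes of -3.28 and -2.85 in rows outside the lists.

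The largest rises included miRNAs that were almost silent with the other vector. miR-148a, which targets the DNA methyltransferase DNMT1 among others, stood at 11245, 5717 and 12962 RPM with the miR-450a vector, against 19.7, 25.0 and 35.0 RPM with the miR-450b vector and 229.8, 207 and 359 RPM with the empty vector. The log2 difference between the vectors was 8.03 ± 0.36 (adjusted p = 9.08e-09), a 376-fold ratio of means. The empty vector libraries lay between the vectors. miR-629, encoded in an intron of TLE3, stood at 2594, 1729.99 and 2642 RPM with the miR-450a vector, 3.90, 0.541 and 2.65 RPM with the miR-450b vector and 108, 154 and 177 RPM with the empty vector (7.54 ± 0.29 between the vectors). It too was intermediate with the empty vector. miR-30a averaged 1744 ± 304, 11.7 ± 1.95 and 53.1 ± 25.3 RPM in miR-450a, miR-450b and empty vector libraries (SD, n = 3), a difference of 6.33 ± 0.31 between the vectors. miR-708, from an intron of TENM4, and miR-187 averaged 754 ± 152 and 573 ± 29.8 RPM with the miR-450a vector, against 1.26 ± 1.02 and 3.15 ± 1.27 RPM with the miR-450b vector (SD, n = 3 each). miR-31-5p, linked to tumour invasion, stood at 837, 982 and 287 RPM with the miR-450a vector and 0.354, 0.758 and 1.29 RPM with the miR-450b vector (5.87 ± 0.38). Of rows outside the lists, miR-95, miR-618, miR-873, miR-551a and miR-577 rose by 2.73 to 3.79 and miR-375 by 2.31.

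The comparisons of the vectors with the empty vector share its libraries, so their values are set side by side only. For miR-148a the log2 differences from the empty vector were 5.14 for the miR-450a vector and -2.89 for the miR-450b vector. For miR-629 they were 3.90 and -3.64, and for miR-30a 4.85 and -1.47. By contrast miR-196b stood at 7.54 and 0.24, and miR-296-3p at 6.63 and -0.07. For miR-199a-3p these values were -8.65 and 0.26, for miR-214-3p -9.06 and -0.03, and for miR-137 -7.87 and -0.50.

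miRNAs of HOX gene clusters split by gene copy. HOX clusters set positional identity in the embryo and carry miR-10 and miR-196 genes. miR-196b, in the HOXA cluster, stood at 10007, 8278 and 8075 RPM with the miR-450a vector and 43.9, 42.3 and 51.1 RPM with the miR-450b vector (7.30 ± 0.32, adjusted p = 6.71e-09). miR-196a, from the HOXB and HOXC clusters, stood at 3280.2, 2913 and 3198 RPM with the miR-450a vector and 8776, 8776 and 6960.1 RPM with the miR-450b vector (-1.37 ± 0.28, adjusted p = 0.00144). The pair, whose sequences are printed above with a single differing base, thus moved in opposite directions with no overlap between groups. miR-10b, in the HOXD cluster, stood at 15741, 13562 and 18188 RPM with the miR-450a vector and 161, 224 and 176 RPM with the miR-450b vector (6.33 ± 0.37). miR-10a, in the HOXB cluster, averaged 36631 ± 6080.2 and 44462 ± 10159.6 RPM (SD, n = 3 each) and did not pass as deposited (-0.27), whereas it was called lower under median-of-ratios scaling (-1.0014). Over this list, 4 of 11 tested rows rose and 1 fell, against 4 and 5 under median-of-ratios scaling. All 4 that rose were arms of miR-10b and miR-196b.

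Imprinted genes gave the same kind of split. Imprinted genes are read from the maternal or the paternal copy only. miR-296, from the GNAS region, rose in both arms, miR-296-5p by 6.46 and miR-296-3p at 1559, 1054 and 1539 RPM with the miR-450a vector and 2.24, 2.17 and 5.15 RPM with the miR-450b vector (6.71 ± 0.24). miR-675, cut from the noncoding RNA H19, fell in both arms, with miR-675* at 10.8, 6.68 and 11.2 RPM with the miR-450a vector and 816, 944 and 924 RPM with the miR-450b vector (-5.54 ± 0.26). miR-335, from an intron of MEST, fell too. miR-335-3p averaged 2.66 ± 1.64 RPM with the miR-450a vector, 168 ± 21.0 RPM with the miR-450b vector and 1269 ± 92.2 RPM with the empty vector (SD, n = 3), so the miR-450b vector libraries lay between the others. Over the list, 2 of 6 tested rows rose and 4 fell, with 2 and 4 under median-of-ratios scaling.

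The let-7 family, which restrains growth genes such as RAS and HMGA2, moved in both directions. let-7c stood at 1898, 1055 and 1566 RPM with the miR-450a vector and 16165, 13161 and 8582 RPM with the miR-450b vector (-3.05 ± 0.36, adjusted p = 2.61e-05). let-7f stood at 7149, 6470.1 and 10108 RPM with the miR-450a vector and 2777, 3209 and 3264 RPM with the miR-450b vector (1.33 ± 0.30, adjusted p = 0.0026), a call lost under median-of-ratios scaling at 0.60. let-7c and let-7f share their seed, so their changes partly offset within the family. let-7a, the most abundant member, averaged 19949.8 ± 4577 RPM with the miR-450a vector and 32386 ± 7672 RPM with the miR-450b vector (SD, n = 3 each). It did not pass as deposited (-0.70), and it was called lower under median-of-ratios scaling (-1.43) and without miR-450b vector replicate 3 (-0.91). let-7b and let-7e fell, at -1.11 and -1.07 on the log2 scale, calls that were lost without miR-450b vector replicate 1 (-0.99 and -0.91). let-7d rose by 1.13 and miR-98 by 0.92, and both calls were lost under median-of-ratios scaling (0.41 and 0.23), that of miR-98 also without miR-450b vector replicate 1 (0.78). Over the family, 7 of 16 tested rows rose and 6 fell as deposited, against 0 and 7 under median-of-ratios scaling. let-7 rows together held 4.30 ± 0.918% of reads under the miR-450a vector, 6.46 ± 1.38% under the miR-450b vector and 1.21 ± 0.377% under the empty vector (mean and SD of 3 libraries, exact permutation p = 0.2 between the vectors).

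let-7c is encoded beside miR-99a and a gene of miR-125b, MIR125B2, on chromosome 21. Those miRNAs also stood lower with the miR-450a vector than with the miR-450b vector. With the empty vector let-7c averaged 2383 ± 876 RPM, miR-99a 20452 ± 8954 RPM and miR-125b 8866 ± 1964 RPM (SD, n = 3). With the miR-450b vector let-7c thus averaged above the empty vector, and miR-99a and miR-125b averaged below it. miR-125b is also made by MIR125B1 on chromosome 11, so its main-arm reads cannot be assigned to either copy. miR-99a stood at 534, 1509 and 244 RPM with the miR-450a vector and 5442, 7259 and 5697 RPM with the miR-450b vector (-3.36 ± 0.58). miR-125b averaged 1379 ± 667 and 5620.1 ± 1502 RPM and miR-125b-2* 85.7 ± 20.4 and 613 ± 63.2 RPM (SD, n = 3 each), with log2 changes of -2.13 and -2.72. miR-99b, on chromosome 19 beside let-7e, changed by -1.15 (adjusted p = 0.0265), a call lost with no filter (-1.15) and without miR-450a vector replicate 2 (-0.75) or miR-450b vector replicate 1 (-0.94). Over the miR-99, miR-100 and miR-125 families, 0 of 9 tested rows rose and 7 fell, with 0 and 8 under median-of-ratios scaling.

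The miR-29 family, which targets collagen and other matrix genes, split by its gene pairs. miR-29a, encoded beside miR-29b-1 on chromosome 7, stood at 3396, 3874 and 2922 RPM with the miR-450a vector and 23464, 24946 and 26278 RPM with the miR-450b vector (-2.88 ± 0.23, adjusted p = 7.05e-07). miR-29c, encoded beside miR-29b-2 on chromosome 1, stood at 938, 3564 and 1058 RPM with the miR-450a vector and 168, 265 and 217 RPM with the miR-450b vector (2.78 ± 0.49, adjusted p = 0.00052). The lesser arms went with their pair: miR-29b-1* fell (-2.88), whereas miR-29b-2* rose by 1.78 and miR-29c* by 2.15. Over the family, 3 of 7 tested rows rose and 3 fell under each scaling. Its share of reads was 0.572 ± 0.217% under the miR-450a vector and 2.61 ± 0.169% under the miR-450b vector (SD, n = 3 each, exact permutation p = 0.1).

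**Figure D3:**
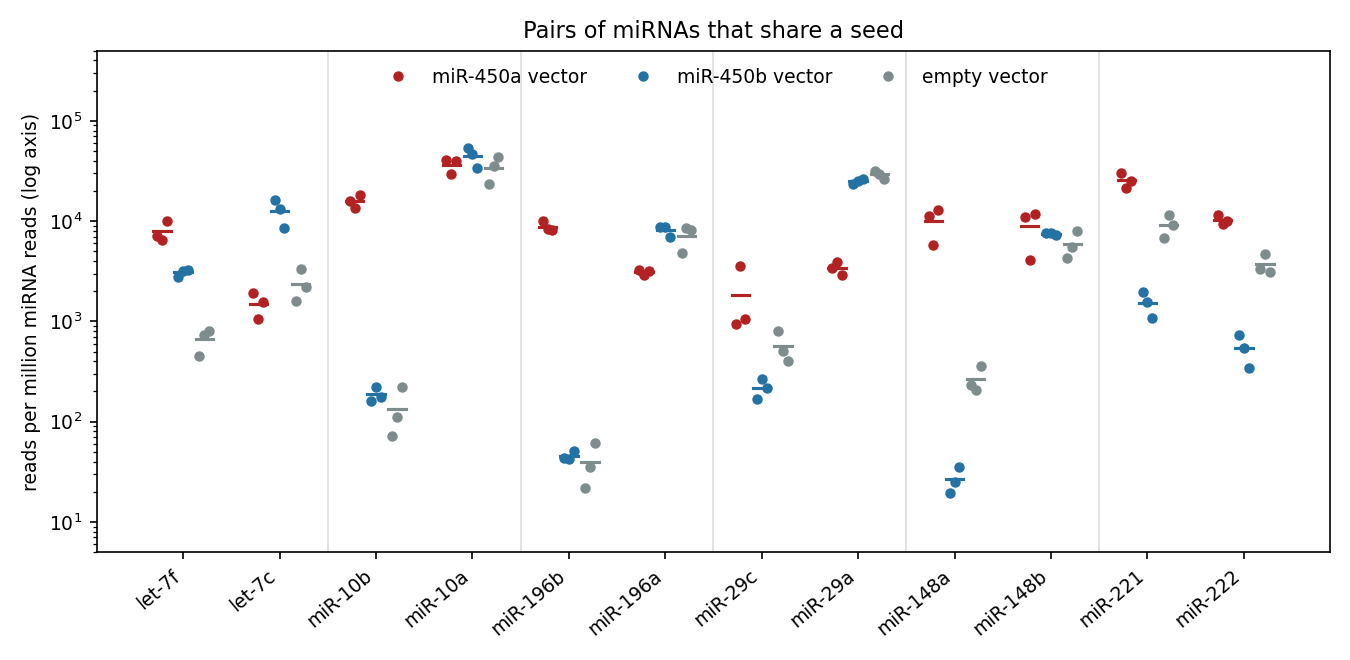
Levels in reads per 1000000 miRNA reads (log axis) of pairs that share a seed, with a point for each library and a bar for the mean of 3. miR-196b and miR-29c lie higher and miR-196a and miR-29a lower with the miR-450a vector than with the miR-450b vector, while miR-221 and miR-222 both lie higher.

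Opposite moves were counted over the seeds shared by rows with a sequence. A RefSeq sequence was found for 287 of the 405 rows, and 31 seeds were shared by at least 2 of these rows. Rows without a sequence, among them miR-130a and miR-10b, were left out, so the count may miss relatives that moved in opposite directions. Calls in both directions were found within 6 of the 31 seeds as deposited and within 2 of them also under median-of-ratios scaling, those of miR-29 and of miR-196. With 43.6% of all tested rows called higher and 17.9% lower, nothing particular to shared seeds is read from that count. In the miR-148 and miR-152 family only the arms of miR-148a rose. miR-148b, 2 bases away from miR-148a, averaged 8934 ± 4184 RPM with the miR-450a vector and 7451 ± 217 RPM with the miR-450b vector (SD, n = 3 each) and did not pass (0.12, adjusted p = 0.8, and -0.61 under median-of-ratios scaling). Over that family 2 of 5 tested rows rose and 0 fell, with 2 and 1 under median-of-ratios scaling.

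miR-221 and miR-222, which repress the cell cycle inhibitor CDKN1B, rose together. miR-221 stood at 30319, 21494 and 25208 RPM with the miR-450a vector, 1947, 1556 and 1093 RPM with the miR-450b vector and 6793, 11490.5 and 9239.97 RPM with the empty vector (4.08 ± 0.30 between the vectors, adjusted p = 4.74e-07). miR-222 averaged 10323 ± 1153, 538 ± 191 and 3718 ± 857 RPM in the same order of groups (SD, n = 3), a difference of 4.29 ± 0.31. The groups did not overlap, with the empty vector between the vectors. All 4 rows of the pair rose under both scalings, miR-221* by 3.20 and miR-222* by 2.83.

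Of miRNAs tied to tumour growth, miR-21 and miR-34a moved in opposite directions. miR-21, often raised in carcinomas, stood at 4605, 4024 and 6631 RPM with the miR-450a vector and 21515, 22842 and 42587 RPM with the miR-450b vector (-2.47 ± 0.37, adjusted p = 0.000166). miR-34a, a transcriptional target of p53, stood at 394, 706 and 281 RPM with the miR-450a vector, 67.4, 90.9 and 61.2 RPM with the miR-450b vector and 1978, 1849 and 1808 RPM with the empty vector. Its difference between the vectors was 2.41 ± 0.34 (adjusted p = 9.11e-05), and both vector groups lay below the empty vector. miR-192 and miR-194, encoded together on chromosome 11 and also linked to p53, rose by 2.65 and 2.15. Over the p53-linked list, 4 of 6 tested rows rose and 2 fell, with 4 and 2 under median-of-ratios scaling. The falls were miR-143 and miR-145, which stand in the mesenchymal list as well. In the carcinoma and inflammation list 2 of 6 tested rows rose and 2 fell, with 2 and 2 under median-of-ratios scaling, the rises being arms of miR-31 and the falls arms of miR-21.

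The miR-17 to miR-92 cluster and its paralogs, which drive proliferation, held the largest share of reads among the lists. They held 43.4 ± 3.83% under the miR-450a vector, 24.4 ± 1.10% under the miR-450b vector and 25.1 ± 1.92% under the empty vector (mean and SD of 3 libraries, exact permutation p = 0.1 between the vectors). In this list 6 of 23 tested rows rose and 2 fell as deposited, against 0 and 3 under median-of-ratios scaling, so no rise was called under both scalings. miR-92a stood at 225501, 161846 and 222620.00 RPM with the miR-450a vector and 141901, 113865 and 89240.3 RPM with the miR-450b vector (0.83 ± 0.29, adjusted p = 0.0266). That call was lost under median-of-ratios scaling (0.10), with no filter (0.83), with the replicate number as a block (0.83), and without miR-450a vector replicate 1 or 3 or miR-450b vector replicate 2 or 3 (0.66 to 0.84). miR-17 averaged 61931 ± 22840.1 and 29838 ± 6445 RPM (SD, n = 3 each), and its call at 1.01 was lost under median-of-ratios scaling (0.28), with no filter (1.01) and without miR-450a vector replicate 2 (0.73) or miR-450b vector replicate 1 (0.90). miR-20a averaged 32369 ± 14044 and 18361 ± 7482 RPM and miR-19b 29406 ± 15179 and 14355 ± 6394 RPM (SD, n = 3 each). Neither passed as deposited (0.82 and 1.04), but miR-20a did without miR-450a vector replicate 1 (1.14) and miR-19b without miR-450b vector replicate 3 (1.33). The falls were miR-20b and miR-20b*, of the X-linked paralog, at -1.43 and -1.29.

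Several other families changed mostly in 1 direction. The miR-181 family, which modulates lymphocyte and neural differentiation, rose: miR-181a stood at 5675, 4081 and 5178 RPM with the miR-450a vector and 1125, 826 and 536 RPM with the miR-450b vector (2.62 ± 0.34). miR-181b, miR-181c and miR-181d, from the same and other gene copies, rose by 2.65, 2.14 and 2.26. In this family 7 of 8 tested rows rose and 0 fell, with 7 and 1 under median-of-ratios scaling. The miR-26 family fell in all tested rows (0 of 4 tested rows rose and 4 fell, 0 and 4 under median-of-ratios scaling), and miR-26a averaged 11584 ± 444 RPM with the miR-450a vector and 22768 ± 2937 RPM with the miR-450b vector (SD, n = 3 each, -0.97), while miR-26b changed by -1.31. The miR-183 cluster, best known from sensory cells, had 839 ± 73.5 and 2636 ± 496 RPM of miR-182 (SD, n = 3 each, -1.63), and 0 of 6 tested rows rose and 4 fell, with 0 and 6 under median-of-ratios scaling. Each of these counts can be read against the 43.6% of all tested rows called higher and the 17.9% called lower. The same holds for the counts of the other lists. Under median-of-ratios scaling these shares over all tested rows were 24% and 25.5%.

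The miR-23, miR-27 and miR-24 genes form copies on chromosomes 9 and 19, and the copies differed. miR-23a, on chromosome 19, stood at 1135, 783 and 965 RPM with the miR-450a vector and 6167, 5343 and 5079 RPM with the miR-450b vector (-2.52 ± 0.31), and miR-27a fell too (-2.11). miR-27b, on chromosome 9, averaged 7775 ± 3618 and 5069 ± 829 RPM (SD, n = 3 each) and did not pass (0.49), though it did without miR-450a vector replicate 2 (0.97). In the list of both copies 0 of 9 tested rows rose and 6 fell, with 0 and 6 under median-of-ratios scaling. In the miR-30 family 4 of 11 tested rows rose and 0 fell, against 3 and 0 under median-of-ratios scaling. Both arms of miR-30a rose, miR-30a* by 4.82, and so did miR-30c-2*, whose gene neighbours that of miR-30a on chromosome 6 and which stood at 90.6, 49.5 and 67.7 RPM with the miR-450a vector and was listed at 0 in every miR-450b vector library. Of miR-15 and miR-16 relatives, 3 of 10 tested rows rose and 1 fell, with 1 and 2 under median-of-ratios scaling, and miR-497 rose by 1.61 and was called under both.

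Marker miRNAs of other cell types were checked in the same way. Among neural miRNAs, 6 of 14 tested rows rose and 6 fell, with 3 and 6 under median-of-ratios scaling. miR-9 stood at 2910.2, 2923 and 4112 RPM with the miR-450a vector and 115, 109.98 and 182 RPM with the miR-450b vector (4.53 ± 0.32), whereas miR-132-3p, induced by neuronal activity through CREB, averaged 837 ± 84.4 and 4885 ± 1403 RPM (SD, n = 3 each, -2.50). miR-212-3p, from the same transcript as miR-132, fell too (-2.50). miR-218, from introns of SLIT genes, stood at 19697, 29022 and 17111 RPM with the miR-450a vector and 5285, 6865 and 6530.2 RPM with the miR-450b vector (1.79 ± 0.26). The neural list moved in both directions, and its median log2 change was 0.29 against 0.67 over all rows.

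The remaining marker lists were low under both vectors. Muscle miR-1 averaged 11.9 ± 2.03 RPM with the miR-450a vector and 55.8 ± 21.9 RPM with the miR-450b vector and miR-133a 11.0 ± 4.89 and 37.0 ± 13.0 RPM (SD, n = 3 each). In the muscle list 0 of 3 tested rows rose and 2 fell, with 0 and 2 under median-of-ratios scaling. The fall of miR-133a, -1.15, was lost with a pseudocount of 100 RPM (-0.30) and without miR-450a vector replicate 3 (-0.99) or miR-450b vector replicate 2 (-0.96). Of the 10 rows of the epithelial miR-200 family only miR-200c and miR-141 reached the minimum. miR-200c averaged 286 ± 49.2 and 121.5 ± 38.9 RPM, and both calls (1.21 and 1.01) were lost under median-of-ratios scaling (0.51 and 0.64). Endothelial miR-126 averaged 839.5 ± 639.8 and 654 ± 228 RPM and blood cell miR-142-3p 120.4 ± 72.8 and 134 ± 57.0 RPM (SD, n = 3 each), and neither list had a call (0 of 2 tested rows rose and 0 fell, 0 of 3 tested rows rose and 0 fell). The signs of miR-126 and miR-142-3p changed with single libraries. Liver miR-122 averaged 7.26 ± 1.57 and 12.8 ± 5.11 RPM and was not called as deposited, and no row of the pluripotency list reached the minimum. The part of other cell types in the differences was not tested.

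The energy metabolism and CLCN5 lists had no call under both scalings. In the energy metabolism list 1 of 10 tested rows rose and 0 fell, against 0 and 2 under median-of-ratios scaling. miR-103 averaged 37844 ± 1830.1 and 28454 ± 4675 RPM and miR-378 21819.7 ± 3688 and 14637 ± 839 RPM (SD, n = 3 each), neither called as deposited. In the X-linked cluster within CLCN5, 3 of 12 tested rows rose and 0 fell, against 0 and 0. In the list of intronic miRNAs 12 of 27 tested rows rose and 7 fell, against 10 and 9. Under both scalings 10 rises and 7 falls were called. Whether each member lies in an intron of a protein-coding gene was not checked. Of all tested rows 43.6% were called higher and 17.9% lower, so nothing particular to introns is read from these counts. Beside miR-148a, miR-629 and miR-708 the rises in this list included miR-551b. It averaged 243 ± 202 RPM with the miR-450a vector and 4.99 ± 3.16 RPM with the miR-450b vector (SD, n = 3 each, 3.79). The falls included miR-383, which averaged 25.8 ± 5.89 and 225 ± 55.5 RPM (SD, n = 3 each, -2.70). With the empty vector miR-551b averaged 131 ± 113 RPM and miR-383 10.9 ± 4.54 RPM (SD, n = 3). miR-383 was thus highest with the miR-450b vector.

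**Figure D4:**
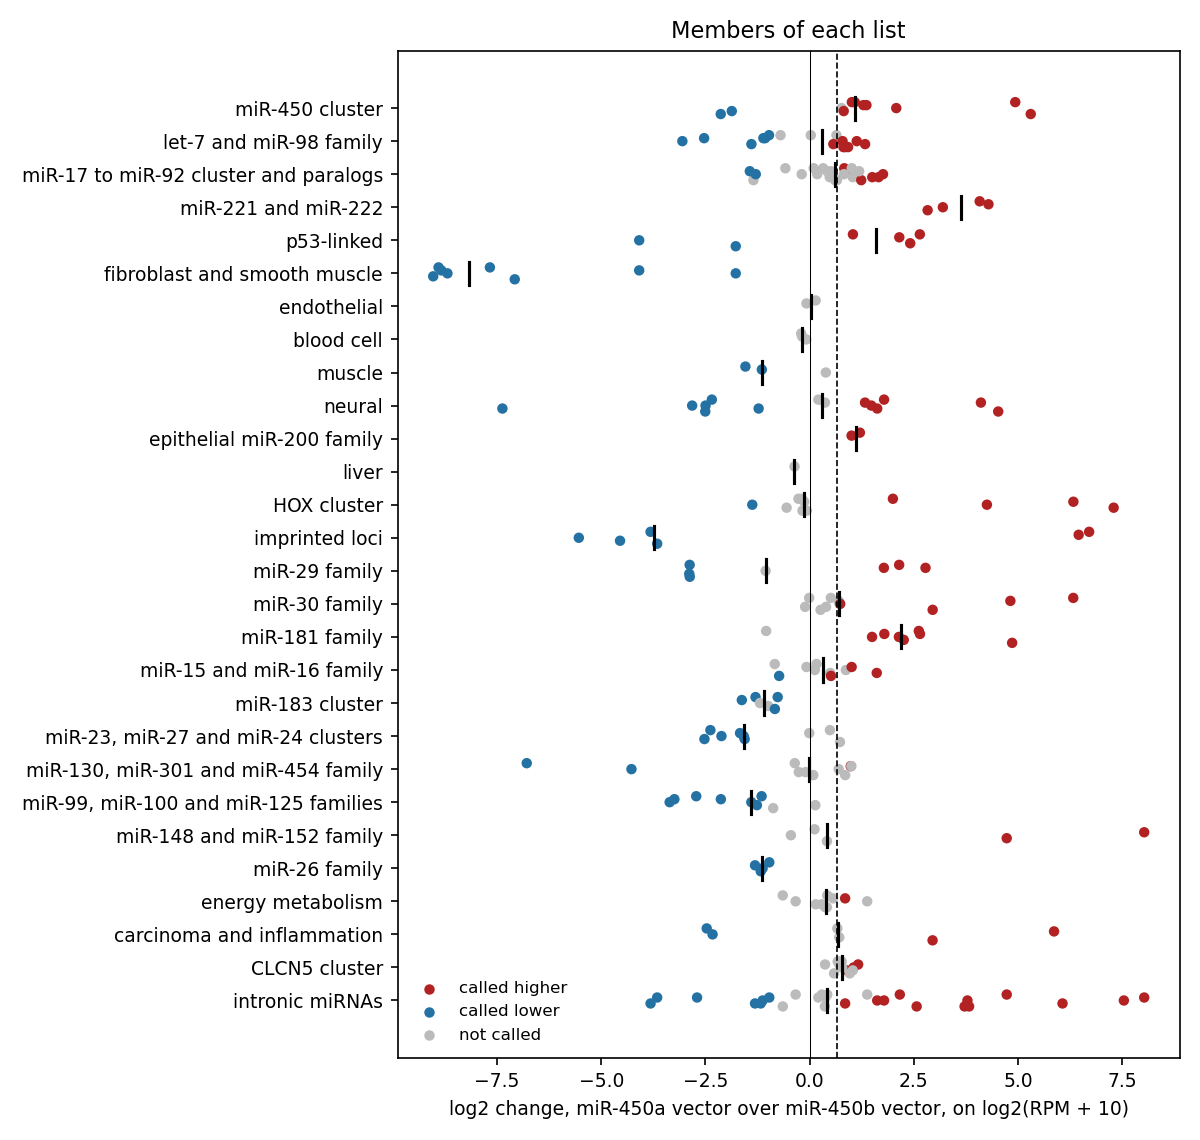
Log2 change of every tested member of the lists, miR-450a vector over miR-450b vector, on log2(RPM + 10), coloured by call as deposited, with a vertical bar at each list's median and a dashed line at the median of all tested rows, 0.67. The 8 members of the fibroblast and smooth muscle list lie left of 0, and the 4 members of miR-221 and miR-222 lie right of the dashed line.

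Grouping the reads by seed shows how the part of the guide pool with a matched sequence differed. Sequences were found for rows holding 91.2% to 94.0% of the reads of a library. Rows without a sequence add to no seed, so the sum of a seed they share is too low. Among them miR-10b averaged 15830 ± 2314 RPM with the miR-450a vector and 187 ± 32.7 RPM with the miR-450b vector. Likewise miR-130a averaged 116 ± 76.1 and 12914 ± 3907 RPM (SD, n = 3 each). The seed of miR-92a, miR-25, miR-92b and miR-363 held 23.1 ± 4.13% of reads under the miR-450a vector, 13.7 ± 3.00% under the miR-450b vector and 9.43 ± 2.52% under the empty vector (SD, n = 3). The seed of miR-17 held 13.5 ± 4.41% under the miR-450a vector and 8.21 ± 1.72% under the miR-450b vector, and the difference was as low as 2.73 percentage points without miR-450a vector replicate 2. The seed of miR-199a-3p held 0.0310 ± 0.00804% under the miR-450a vector and 15.4 ± 2.57% under the miR-450b vector, the largest gap among the 12 most abundant seeds. The let-7 seed held 4.26 ± 0.914% and 6.40 ± 1.39%, and that of miR-26a 1.60 ± 0.0346% and 3.36 ± 0.214%. The seed of miR-221 and miR-222 held 3.60 ± 0.558% under the miR-450a vector, 0.207 ± 0.0618% under the miR-450b vector and 1.29 ± 0.307% under the empty vector. With 3 libraries in each group no seed could pass, and the smallest adjusted exact permutation p over the 65 seeds compared was 0.155. The seed of miR-450a held 1.33 ± 0.650% of reads with its vector, 0.0406 ± 0.0122% under the miR-450b vector and 0.0389 ± 0.00658% under the empty vector.

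**Figure D5:**
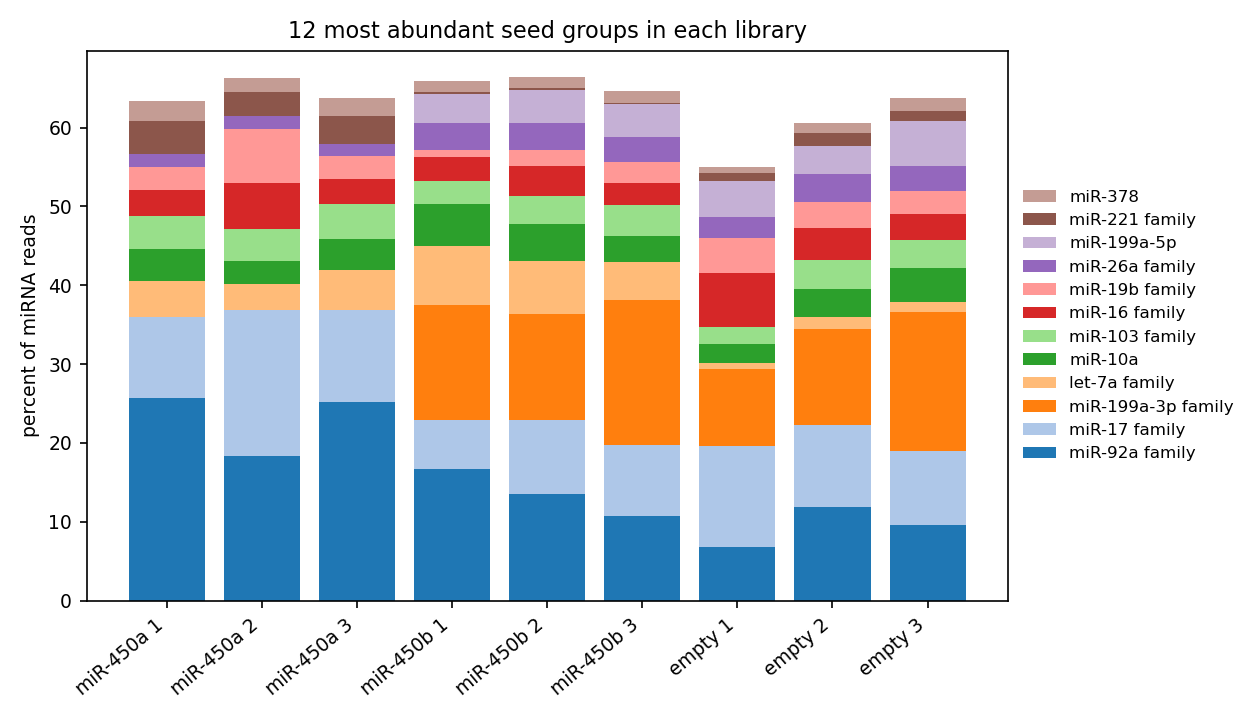
Percent of miRNA reads held by the 12 most abundant seed groups in each library, as stacked bars from 0. Rows without a matched sequence, such as miR-10b, are not in the bars. The miR-199a-3p family makes up 15.4 ± 2.57% of reads on average with the miR-450b vector and is not visible with the miR-450a vector, where the miR-92a and miR-221 families take more.

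Arms of the same miRNA number were compared where exactly 2 rows were tested. As deposited, both rows were called in 75 cases, and all 75 pairs moved the same way. Since 70.9% of all mature calls were higher, calls would often agree anyway. Some numbers have several gene copies, so their rows need not come from 1 hairpin. Numbers with more rows were left out, among them miR-181a. There miR-181a was called higher and miR-181a-2* lower under median-of-ratios scaling (1.89 and -1.67). In the other 70 cases at most 1 arm was called, and in 13 of these the log2 changes had opposite signs. Arms of a hairpin share their transcript and are not separate loci. For instance miR-148a* stood at 289, 204 and 314 RPM with the miR-450a vector and 0.236, 0.108 and 0.715 RPM with the miR-450b vector, and miR-137* at 0, 0 and 0.131 and 72.3, 66.8 and 46.2 RPM.

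The precursor table holds shares by hairpin instead of by mature strand. Of 292 precursor rows tested, 67.5% were called, 50.3% higher and 17.1% lower, and the groups did not overlap in 74.3%. Of the 289 human precursors 50 fell, 94 did not pass and the rest rose, against 78 that rose and 76 that fell under median-of-ratios scaling, so 74.6% of calls were higher as deposited and 51.3% with that scaling. The largest rises were mir-148a (8.06), mir-629 (7.57), mir-296 (7.32), mir-196b (7.30) and mir-10b (6.34). The largest falls were mir-214 (-8.97), mir-199a-1 (-8.81), mir-199a-2 (-8.81), mir-199b (-8.67) and mir-137 (-7.40). Within the vector cluster mir-503, mir-424 and mir-542 stood at 2.08, 1.35 and 1.03 and mir-450b at -1.92, with the calls of mir-424 and mir-542 lost under median-of-ratios scaling (0.51 and 0.21) and that of mir-542 also without miR-450a vector replicate 3 (0.94) or miR-450b vector replicate 1 (0.85) or 2 (0.97). mir-450a-1 averaged 7563 ± 3103 RPM with the miR-450a vector and 216 ± 62.0 RPM with the miR-450b vector, and mir-450a-2 6679.5 ± 3253 and 224 ± 60.7 RPM (SD, n = 3 each). The main arms of these copies have the same sequence, so their reads cannot be assigned to either copy.

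Calls of precursors of neighbouring genes mostly went the same way. A GRCh38.p14 gene was found for 287 of the 289 precursors, and 37 groups of genes within 10000 bases of each other held 100 of them. As deposited, at least 2 members were called in 25 groups, and in 22 of these all calls went the same way. Since 74.6% of all precursor calls were higher, calls would often agree anyway, and nothing particular to neighbours is read from that count. The groups of mir-532 (X) and mir-17 (13) each had 5 higher calls as deposited and 0 under median-of-ratios scaling. Calls in both directions were found in 3 groups, which were the vector cluster itself, the X-linked group of mir-106a and mir-363, and the group of mir-23b, mir-27b and mir-24-1 on chromosome 9. Several precursors, among them mir-24-1, mir-92a-2, mir-19b-2, mir-194-2, mir-199a-2 and both copies of mir-181a and mir-181b, share a mature sequence with copies elsewhere, so their values are uncertain and groups that share one are not separate. miR-181a-2*, the arm specific to the chromosome 9 copy of mir-181a, did not rise (-1.04, and -1.67 and called lower under median-of-ratios scaling). The groups of mir-181a-1 with mir-181b-1 (chromosome 1), mir-181c with mir-181d (19), mir-181a-2 with mir-181b-2 (9), mir-192 with mir-194-2 (11) and mir-221 with mir-222 (X) rose in all members under both scalings. Those of mir-99a with let-7c (21), mir-132 with mir-212 (17), mir-143 with mir-145 (5), mir-182 with mir-96 and mir-183 (7) and mir-214 with mir-199a-2 (1) fell in all members under both scalings.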

How the data were processed

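Small RNA was read from 9 libraries of A2780 cells. The values the authors deposited are fractions. Per the file headers they are relative frequencies of mature strands or hairpins within a library, and each column summed to 1. TopHat and Cuffdiff appear in the submitters' processing notes without version or role. Aligner, annotation and build are otherwise not given in the sources used here. Read totals were not used here, so the depth is unknown, and no interval, detection limit or count-based test was made.

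Shares were multiplied by 1000000 to give RPM. Rows averaging 10 RPM or more across the 6 libraries compared were kept, and log2(RPM + 10) was fitted with limma 3.58.1 in R 4.3.3 with an intensity trend. All 9 libraries shared the estimate of the spread, and p-values were adjusted by the Benjamini-Hochberg method over all rows tested, with a threshold of 0.05. Shares of lists and seeds were compared with two-sided exact permutation tests (scipy 1.17.1). The fit was tested on simulated data. Groups came from the library titles.

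Alternatives were median-of-ratios scaling, pseudocounts of 1 and 100 RPM, limma without the trend, no filter, a minimum mean of 100 RPM, a minimum over all 9 libraries, the 6 libraries alone, the replicate number as a block, no 450a and 450b rows, no 10 most abundant rows, and each library left out. The members and lists were chosen with earlier results of these data known. By rule, the miRNAs named are the vector cluster, the 10 largest rises and 10 largest falls with groups that do not overlap (5 each for precursors), the 10 most abundant rows, and from each list its 2 most abundant members. Others, and the limits of 100 and 10 RPM and of 10000 bases between genes, were chosen after their values were seen. Sequences and gene positions were matched by name to RefSeq tables of GRCh38.p14.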

Additional observations from a re-analysis of the deposited data

Results flagged for a closer look

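Among 3 viral rows outside the human comparison, 2 stood higher in the miR-450a vector libraries than in the empty vector libraries. SV40 miR-S1-3p averaged 63.8 ± 14.0 RPM with the miR-450a vector, 0.167 ± 0.289 RPM with the miR-450b vector and 0.0889 ± 0.154 RPM with the empty vector (SD, n = 3). The row hvt-miR-H14*, named for a herpesvirus of turkeys, averaged 45.9 ± 9.83 RPM with the miR-450a vector, 2.32 ± 0.867 RPM with the miR-450b vector and 17.4 ± 3.23 RPM with the empty vector (SD, n = 3). The other, hiv1-miR-TAR-3p, stood at 275, 155 and 392 RPM with the miR-450a vector, 115, 134 and 317 RPM with the miR-450b vector and 209, 203 and 219 RPM with the empty vector, groups that overlapped. Human miR-221 averaged 25674, 1532 and 9175 RPM in miR-450a, miR-450b and empty vector libraries, the same order of groups as hvt-miR-H14*. Other human rows, among them miR-222, miR-148a and miR-629, had this order too, so it is not particular to miR-221. Whether the hvt-miR-H14* row holds reads of a human miRNA was not tested.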

How the results depend on the processing

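Of 147 named results, 102 kept their direction and their side of the threshold under each of the 20 alternatives that gave them a value, and 45 changed under at least 1. A mean of at least 100 RPM left 138 mature rows called (92 higher, 46 lower) and 130 precursors (92 higher), because fewer rows were tested, and no filter left 344 mature rows called. Median-of-ratios scaling gave 98 mature rows higher and, for precursors, 80 higher and 76 lower. Leaving out 1 library gave 211 to 267 mature rows called (146 to 190 higher, 65 to 77 lower). Same-numbered libraries of the vectors deviated from their group means with correlations of 0.64, 0.49 and 0.04 (numbers 1, 2 and 3). Not every pair passed 0.1, so the numbers were not taken to pair the libraries, and whether numbers 1 and 2 share a batch was not tested. With the replicate block 256 mature rows (181 higher) and 193 precursors were called. Under median-of-ratios scaling the sign of some uncalled changes turned: miR-103 (-0.31), miR-16 (-0.57), miR-126 (-0.58), miR-128 (-0.37), miR-30d (-0.22), miR-30c (-0.033), miR-27b (-0.24), miR-148b (-0.61), miR-378 (-0.17), miR-532-5p (-0.054) and miR-660 (-0.35). Without 1 library the changes ranged from -0.17 to 0.35 for miR-16, -0.43 to 0.62 for miR-126, -0.46 to 0.13 for miR-126*, -0.62 to 0.20 for miR-142-3p, -0.57 to 0.12 for miR-142-5p, -0.32 to 0.10 for miR-15b and -0.15 to 0.60 for miR-148b. In percentage points, the difference ranged from -1.93 to 1.62 for the main-arm share of miR-450a, -0.0305 to 0.0484 for the endothelial list, -0.00814 to 0.00153 for the blood cell list, -0.197 to 1.12 for miR-15 with miR-16 and -0.0199 to 1.34 for their seed. The share of the miR-103 and miR-107 seed turned to -0.25 without the 10 most abundant rows, which include miR-103 itself and so leave miR-107. For the other turns the cause was not tested. Depth is unknown, so no limit could be set for rows near 0.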

Other observations

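Lesser arms separate gene copies that share a main arm, and they did not always move with it. miR-181a-1*, from the copy on chromosome 1, stood at 434, 341 and 582 RPM with the miR-450a vector and 6.14, 6.28 and 4.29 RPM with the miR-450b vector (4.86 ± 0.23, limma adjusted p = 1.12e-08). miR-181a-2*, from the copy on chromosome 9, stood at 69.6, 29.0 and 79.2 RPM with the miR-450a vector and 229, 99.6 and 82.3 RPM with the miR-450b vector (-1.04 ± 0.45, limma adjusted p = 0.062), and it was called lower under median-of-ratios scaling (-1.67). The precursor rows of both copies rose, and the reads of the main arm they share cannot be assigned to a copy.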
